A study of Arabidopsis thaliana with 30 samples.

Results

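The transcripts described here are those of 10 Arabidopsis thaliana genes of the DNA damage checkpoint, chosen by name and locus: the kinases ATM, ATR and WEE1, the NAC transcription factors SOG1, NAC044 and NAC085, and the MYB transcription factors MYB3R1, MYB3R3, MYB3R4 and MYB3R5. Of the 20404 genes in the deposited tables, 9 were of this set, and all 9 passed the filter on low values that left 20256 genes for testing. NAC085 (AT5G14490) was not analysed here. RNA was sequenced from 7-day-old seedlings of the Columbia accession (Col) and of the mutants labelled h2a.x-1 and h2a.w-2 (histone variants H2A.X and H2A.W), h2a.x/w-2 (both variants) and tsk (TONSOKU, a DNA repair factor of replicating chromatin). Each of the 5 genotypes was either mock-treated or given methyl methanesulfonate (MMS), an agent that methylates DNA bases and blocks replication forks, with 3 libraries in each of the 10 groups. The dose and duration of MMS, the kind of each mutant allele and the number of plants behind a library are not in the labels, and nothing says that the libraries came from separate cultures, so the p-values measure the spread between these libraries only.

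In plants, ATM is the kinase that answers DNA double-strand breaks and ATR the kinase that answers stalled replication forks. Both signal to SOG1, which has the place that p53 has in animals although the proteins are unrelated, and SOG1 activates repair genes, cell cycle inhibitors and the NAC genes NAC044 and NAC085. WEE1, a kinase that restrains cyclin-dependent kinases, acts downstream of ATR and ATM, and the MYB3R factors read the MSA element of G2/M genes: MYB3R4 activates them, MYB3R3 and MYB3R5 repress them, and MYB3R1 does either. NAC044 and NAC085 are known in roots for the G2 arrest that involves the repressing MYB3R proteins. SOG1 and the repressing MYB3R factors are also controlled as proteins, by phosphorylation and stability, which RNA levels do not measure.

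Each library held 15343687 to 25115027 reads over the genes of the table. TSK fell in tsk mock (log2 fold change -1.54) and HTA5, an H2A.X gene, fell in h2a.x-1 mock (-2.44), while its paralogue HTA3 did not pass the test there. In h2a.w-2 mock, of the H2A.W genes HTA6 fell (-0.52), HTA7 did not pass the test and HTA12 rose (0.48), and both H2A.X genes rose, HTA3 by 1.001 and HTA5 by 0.61. In the mock libraries labelled h2a.x/w-2 none of these 5 histone genes was called lower and HTA12 was called higher (0.45; normalized counts of 257, 172 and 171), so RNA levels do not check that label. One library, h2a.x/w-2 mock replicate 1, stood apart: its log2 values differed from those of its replicates with SDs of 0.290 and 0.297, against 0.151 to 0.225 for the other pairs of replicates. For comparisons of the 9 genes that include h2a.x/w-2, the value without this library is given where it changed a call or moved a called value by over 1.5 times, and for most NAC044 results. Leaving this library out also gave limma calls in comparisons without h2a.x/w-2. They were ATM in h2a.w-2 against Col without MMS (adjusted p = 0.03) and with MMS (adjusted p = 0.038), and MYB3R4 in h2a.w-2 against Col without MMS (adjusted p = 0.046). ATR with MMS against mock in h2a.x-1 was called as well (adjusted p = 0.048). Without that library 6 of the 9 genes were called in h2a.x/w-2 for MMS against mock, where 69.7% of all genes tested were. The number was 6 with it as well, but ATM gained a call and SOG1 lost one. Against Col mock 3 of the 9 were called (20.4% of all genes), as with the library. Against tsk mock 2 were called in place of 3 (23.9% of all genes). The labels name leaves as the tissue, whereas the protocols describe seedlings. All 5 root markers were in the table, with a summed level of 1014 to 1089 normalized counts per kb of exon in Col mock. So were 4 of 4 leaf markers and 3 of 4 shoot meristem markers. Every gene of the table had reads in every library, so presence there does not tell leaves from seedlings.

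The bases before the annotated start of each gene were read from the TAIR10.1 assembly, which RefSeq provides, to show the sites through which these factors are known to act. The sequences searched were CTTNNNNNNNAAG, the palindrome bound by SOG1, and AACGG, the core of the MSA element, the latter on both strands (CCGTT on the other). In the 250 bases before the start, the SOG1-type palindrome stood before 1 of the 10 genes, NAC044, and it was present in 8.93% of the 19932 windows of the same length before protein-coding genes of the table. The MSA core stood before 7 of the 10, against 21.8% of all windows. The palindrome of NAC044 ran from 65 to 53 bases before the start and its MSA core from 134 to 130 bases before. When the window was 1000 bases, 4 of the 10 genes (NAC044, NAC085, WEE1 and MYB3R5) had the palindrome, against 32.7% of all windows, and NAC085 had 3 copies; the MSA core then stood before 8 of the 10, against 57.1% of all windows. No copy of one motif shared a base with a copy of the other. A match is a string of letters, not a tested site. The 250-base windows of MYB3R1 and MYB3R4 reach into a neighbouring gene, and so does the 1000-base window of every member but SOG1. The windows of the gene that changed most with genotype (NAC044), of the kinase gene that fell most with MMS (WEE1), and of the MYB3R3 and MYB3R5 pair are shown 5′ to 3′ on the strand of the gene, with both motifs in capitals. They are chr3:228825-229074 on the plus strand (NAC044), chr1:673056-673305 on the plus strand (WEE1), chr3:2879103-2879352 on the plus strand (MYB3R3) and chr5:486474-486723 on the minus strand (MYB3R5).

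NAC044: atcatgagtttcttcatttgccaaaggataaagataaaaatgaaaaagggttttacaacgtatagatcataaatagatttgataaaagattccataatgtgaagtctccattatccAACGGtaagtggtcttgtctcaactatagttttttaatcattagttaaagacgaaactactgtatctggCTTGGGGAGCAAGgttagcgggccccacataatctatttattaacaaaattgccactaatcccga
WEE1: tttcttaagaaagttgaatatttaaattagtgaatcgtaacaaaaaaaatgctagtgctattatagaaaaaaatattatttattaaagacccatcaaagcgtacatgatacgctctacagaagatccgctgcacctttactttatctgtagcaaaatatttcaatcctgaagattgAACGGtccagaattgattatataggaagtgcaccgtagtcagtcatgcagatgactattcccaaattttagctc
MYB3R3: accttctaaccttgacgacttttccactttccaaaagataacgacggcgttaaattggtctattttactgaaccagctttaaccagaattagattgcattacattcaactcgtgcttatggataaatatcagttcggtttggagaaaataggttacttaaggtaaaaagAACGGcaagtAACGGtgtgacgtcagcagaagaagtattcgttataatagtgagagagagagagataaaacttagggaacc
MYB3R5: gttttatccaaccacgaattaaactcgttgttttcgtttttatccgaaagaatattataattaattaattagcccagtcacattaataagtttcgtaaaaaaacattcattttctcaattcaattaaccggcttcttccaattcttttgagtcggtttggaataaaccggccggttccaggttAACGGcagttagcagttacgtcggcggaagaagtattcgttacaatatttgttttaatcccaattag

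The windows of MYB3R3 and MYB3R5 shared a run of 16 bases, gaagaagtattcgtta, which began 53 bases before the start of MYB3R3 and 41 bases before that of MYB3R5. Over the 45 pairs of the 10 windows it was the longest shared run, the next longest being 10 bases. In both windows MSA cores stood before this run, at 81 to 77 and 71 to 67 bases before the start of MYB3R3 and at 67 to 63 bases before that of MYB3R5.

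In Col mock the 9 genes spanned a wide range of levels, here given as normalized count per kb of annotated exon (mean ± SD, n = 3). MYB3R1 was highest at 174 ± 9.45 per kb, followed by SOG1 at 133 ± 1.69 and MYB3R3 at 80.7 ± 12.3. ATM stood at 60.2 ± 1.12 per kb and MYB3R4 at 55.3 ± 4.59, and their libraries overlapped. WEE1 at 43.3 ± 1.01 per kb and MYB3R5 at 40.8 ± 4.82 overlapped as well. ATR, at 13.3 ± 1.22 per kb, and NAC044, at 7.60 ± 2.99, were lowest. Every other pair of neighbours in this order was separated in all libraries. Across the 10 groups, the highest group mean was 9.72 times the lowest for NAC044, 3.56 times for MYB3R1, 2.82 times for MYB3R4, 2.72 times for WEE1 and 2.69 times for MYB3R5, but 1.72 times for MYB3R3, 1.501 times for ATM, 1.37 times for ATR and 1.23 times for SOG1. The rest of the text uses the normalized count of each gene, which is comparable between libraries and not between genes.

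**Figure D1:**
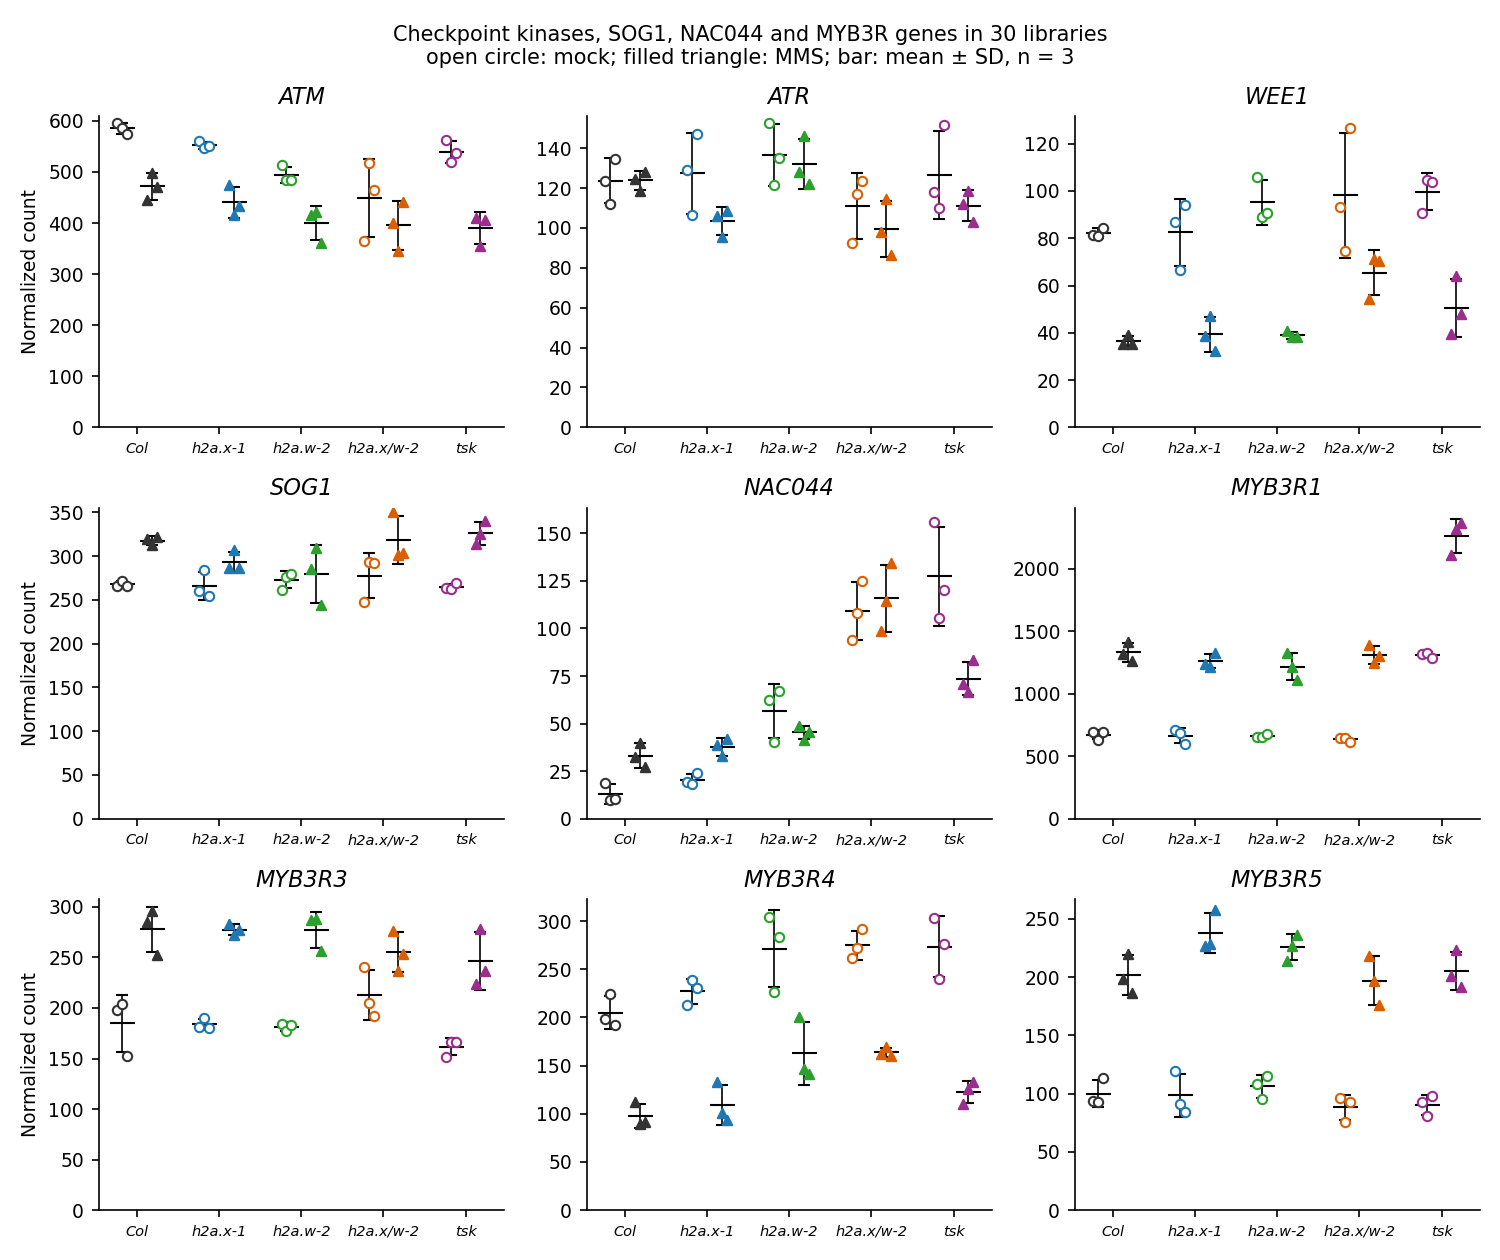
Normalized count (vertical axis, from 0, own scale for each gene) of the 9 measured genes in each of the 30 libraries, by genotype; open circles are mock libraries, filled triangles are MMS libraries and bars are mean ± SD of 3 libraries. NAC044 rises from 9.71 to 19.0 in Col mock to 106 to 156 in tsk mock, and MYB3R1 in both tsk groups sits above the matching group of every other genotype.

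NAC044 (AT3G01600, chromosome 3, 229075 to 231517, plus strand) had the widest range of the genes described. In Col mock its normalized counts were 19.0, 9.71 and 10.6, and under MMS 32.4, 39.9 and 27.1. The 2 groups did not overlap, and NAC044 rose 2.49-fold with MMS (log2 fold change 1.32 ± 0.22 SE, limma, adjusted p = 4.3e-06). In h2a.x-1 it stood at 19.4, 18.3 and 23.8 without MMS and at 38.7, 32.8 and 42.1 with it, again without overlap (0.86 ± 0.22, limma, adjusted p = 9e-04). The fold changes here are of the normalized count plus 1, which understates changes at the 9 to 160 reads that lay behind NAC044 in a library. In these bulk samples more cells that express a gene and more RNA per cell cannot be told apart, nor can fewer cells and less RNA.

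Without MMS, NAC044 was called higher than in Col in 3 of the 4 mutants, h2a.w-2, h2a.x/w-2 and tsk. In h2a.w-2 mock the counts were 62.5, 40.1 and 67.0, above every Col mock library, and the rise was 4.16-fold (log2 2.06 ± 0.22, limma, adjusted p = 9.2e-08). In the mock libraries labelled h2a.x/w-2 they were 94.1, 108 and 125, a rise of 8.07-fold (3.01 ± 0.22, limma, adjusted p = 1e-11; 3.11 without replicate 1). In tsk mock they were 156, 106 and 120, a rise of 9.36-fold (3.23 ± 0.22, limma, adjusted p = 2.6e-12), and 17 of the 20256 genes tested had a larger absolute log2 change in that comparison. In these 3 mutants NAC044 without MMS exceeded its highest value in Col with MMS, 39.9, in every library, though by little in the lowest h2a.w-2 library, at 40.1. The h2a.x-1 mock libraries overlapped those of Col, and the difference did not pass the test (0.66 ± 0.22, limma, adjusted p = 0.062). It passed without Col mock replicate 1, whose NAC044 count of 19.0 was the highest of its group (0.94, adjusted p = 0.0097).

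With MMS, NAC044 did not rise further in these mutants. In h2a.w-2 the MMS libraries stood at 48.8, 41.6 and 45.8, overlapping the mock ones (log2 fold change -0.28 ± 0.22, limma, adjusted p = 0.25). In the libraries labelled h2a.x/w-2 they stood at 98.8, 114 and 134, also overlapping (0.09 ± 0.22, adjusted p = 0.74; -0.02 without mock replicate 1). In tsk they stood at 70.9, 66.6 and 83.5, below every tsk mock library, and NAC044 fell (-0.77 ± 0.22, adjusted p = 0.0026). The MMS response differed from that of Col in h2a.w-2 (difference of log2 changes -1.60 ± 0.31, limma, adjusted p = 0.0015), in h2a.x/w-2 (-1.23 ± 0.31, adjusted p = 0.0098; -1.33, adjusted p = 0.0095, without mock replicate 1) and in tsk (-2.09 ± 0.31, adjusted p = 0.00025). In h2a.x-1 the difference was -0.46 ± 0.31 and did not pass (adjusted p = 0.54). NAC044 was the 1 gene of the 9 whose response was called different in these 3 genotypes, where 7.02%, 8.92% and 2.49% of all genes tested were called; in h2a.x-1 none of the 9 was, against 1.99% of all genes. All of these comparisons use the same Col libraries. Under MMS NAC044 was still above Col in the libraries labelled h2a.x/w-2 (1.78 ± 0.22, adjusted p = 5.3e-07) and in tsk (1.14 ± 0.22, adjusted p = 0.00019), whereas h2a.w-2 (0.46 ± 0.22, adjusted p = 0.19) and h2a.x-1 (0.20 ± 0.22, adjusted p = 0.63) did not pass the test.

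MMS changed the RNA of 72.0% of all genes tested, counted over the 5 genotypes, so a call in this comparison is common. Of the 9 genes 8 were called in Col (71.1% of all genes), 7 in h2a.x-1 (73.1%), 6 in h2a.w-2 (72.9%), 6 in the libraries labelled h2a.x/w-2 (71.7%) and 8 in tsk (71.1%). These shares of all genes amount to between 6 and 7 of 9, so the counts say little about the set.

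Among the kinase genes, WEE1 fell with MMS in all 5 genotypes. WEE1 (AT1G02970, chromosome 1, 673306 to 676419, plus strand) had normalized counts of 81.3, 80.9 and 84.4 in Col mock and 35.4, 38.9 and 35.4 in Col MMS. The groups did not overlap in any genotype, and the log2 fold change was -1.15 ± 0.18 in Col (limma, adjusted p = 2.1e-06), -1.05 in h2a.x-1, -1.26 in h2a.w-2 and -0.99 in tsk. In the libraries labelled h2a.x/w-2 WEE1 stood at 93.2, 74.7 and 127 without MMS and at 54.5, 71.2 and 70.5 with it, a log2 change of -0.56 ± 0.18 (limma, adjusted p = 0.0074), which became -0.36 (adjusted p = 0.092) without mock replicate 3 and -0.43 (adjusted p = 0.056) without MMS replicate 1. Its response there did not differ from that of Col past the threshold (0.59 ± 0.26, adjusted p = 0.16). Under MMS, however, WEE1 was higher in the libraries labelled h2a.x/w-2 than in Col, with no overlap (0.81 ± 0.18, limma, adjusted p = 0.0013). The difference in tsk under MMS was 0.43 and did not pass the main test. It passed in limma with FPKM (0.50, adjusted p = 0.03) and without tsk MMS replicate 1 (0.59, adjusted p = 0.025).

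ATM and ATR moved little. ATM (AT3G48190, chromosome 3, 17801289 to 17828553, plus strand) had normalized counts of 596, 586 and 574 in Col mock and 446, 497 and 471 in Col MMS. These did not overlap, and ATM fell by 0.31 ± 0.09 on the log2 scale (limma, adjusted p = 0.0043; with the FPKM values -0.20, adjusted p = 0.069). It also fell in h2a.x-1 (-0.33), in h2a.w-2 (-0.31) and in tsk (-0.47). In the libraries labelled h2a.x/w-2 ATM stood at 366, 517 and 464 without MMS and at 401, 345 and 440 with it, and the change of -0.18 did not pass (adjusted p = 0.098); without mock replicate 1, the lowest mock library for ATM, it was -0.32 (adjusted p = 0.0021). In the mock libraries of that label ATM was below Col (-0.40 ± 0.09, adjusted p = 0.0024), and without replicate 1 the difference was -0.26 (adjusted p = 0.035). Under MMS ATM was below Col in h2a.x/w-2 (-0.26, adjusted p = 0.043) and in tsk (-0.28, adjusted p = 0.027), calls near the threshold that edgeR's quasi-likelihood test on the recovered reads lost with TMM scaling (adjusted p = 0.055 and 0.05) and kept with DESeq2-style size factors. The first was also lost in DESeq2 (adjusted p = 0.051) and the second with FPKM (adjusted p = 0.12), and both were lost without some single libraries, such as Col MMS replicate 2 (adjusted p = 0.14 and 0.11). In h2a.w-2 ATM was also below Col, with log2 differences of -0.24 both without and with MMS, and neither passed the main test. The difference without MMS passed with only the groups compared (limma, adjusted p = 0.018). Both passed without h2a.x/w-2 mock replicate 1 (limma, adjusted p = 0.03 and 0.038).

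ATR (AT5G40820, chromosome 5, 16342728 to 16353898, minus strand) had 124, 112 and 135 normalized counts in Col mock and 125, 119 and 128 in Col MMS, an overlap. None of its 5 MMS comparisons passed the test, the log2 changes lying between -0.29 (h2a.x-1, adjusted p = 0.061) and 0.01 (Col), each with an SE of 0.14. No mutant differed from Col in ATR past the threshold with or without MMS. Of its exon bases 2.15% overlap AT5G40810 on the other strand; the strand setting of the counting is not given in the sources used here.

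SOG1, the factor that both kinases address, was among the least variable of the 9 RNAs. SOG1 (AT1G25580, chromosome 1, 8996714 to 8999917, minus strand) stood at 266, 272 and 266 normalized counts in Col mock and at 319, 312 and 322 in Col MMS. The groups did not overlap, and the rise was 1.19-fold (log2 0.25 ± 0.08, limma, adjusted p = 0.0086). It rose by a like amount in tsk (0.30 ± 0.08, adjusted p = 0.0018). In h2a.x-1 (0.14, adjusted p = 0.12) and in h2a.w-2 (0.03, adjusted p = 0.76) the change did not pass. The rise in the libraries labelled h2a.x/w-2 (0.20, adjusted p = 0.032) was lost without mock replicate 1 (0.12, adjusted p = 0.21) and without MMS replicate 1 (0.13, adjusted p = 0.20). No mutant differed from Col in SOG1 RNA past the threshold, and no difference between the MMS responses of a mutant and Col did, the largest being -0.22 ± 0.12 in h2a.w-2 (adjusted p = 0.29).

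The 4 MYB3R genes split with MMS: MYB3R1, MYB3R3 and MYB3R5 rose and MYB3R4 fell, each in all 5 genotypes. MYB3R4 (AT5G11510, chromosome 5, 3679748 to 3684884, plus strand), the activator, had 198, 224 and 192 normalized counts in Col mock and 112, 89.0 and 91.7 in Col MMS. The groups did not overlap in any genotype, and the log2 fold change was -1.07 ± 0.14 in Col (limma, adjusted p = 5.4e-08), -1.07 in h2a.x-1, -0.74 in h2a.w-2, -0.74 in the libraries labelled h2a.x/w-2 and -1.14 in tsk. Among the repressors, MYB3R5 (AT5G02320, chromosome 5, 482793 to 486473, minus strand) stood at 93.8, 92.8 and 114 in Col mock and at 198, 220.0 and 187 in Col MMS. It rose in Col by 1.01 ± 0.13 on the log2 scale (limma, adjusted p = 4.3e-08) and by 1.08 to 1.28 in the mutants, with no overlap in any genotype. Its exons share 6.12% of their bases with AT5G02310 on the other strand.

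MYB3R3 (AT3G09370, chromosome 3, 2879353 to 2882396, plus strand), the other repressor, stood at 198, 204 and 152 normalized counts in Col mock and at 285, 296 and 252 in Col MMS. It rose without overlap by 0.59 ± 0.10 on the log2 scale (limma, adjusted p = 8.9e-06), and by 0.59 to 0.60 in h2a.x-1, h2a.w-2 and tsk. In the libraries labelled h2a.x/w-2 the groups overlapped, at 240.4, 205 and 192 without MMS and 276, 236 and 253 with it, and the rise was 0.27 ± 0.10 (adjusted p = 0.023; 0.36, adjusted p = 0.0047, without mock replicate 1; 0.20, adjusted p = 0.12, without mock replicate 3). MYB3R1 (AT4G32730, chromosome 4, 15790133 to 15796114, plus strand) stood at 695, 631 and 694 in Col mock and at 1317, 1413 and 1265 in Col MMS. It rose 1.98-fold in Col (log2 0.98 ± 0.07, limma, adjusted p = 1.7e-13) and by 0.79 to 1.04 on the log2 scale in the mutants, with no overlap in any genotype. None of the 4 MYB3R genes had an MMS response that differed from that of Col past the threshold in any mutant.

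**Figure D2:**
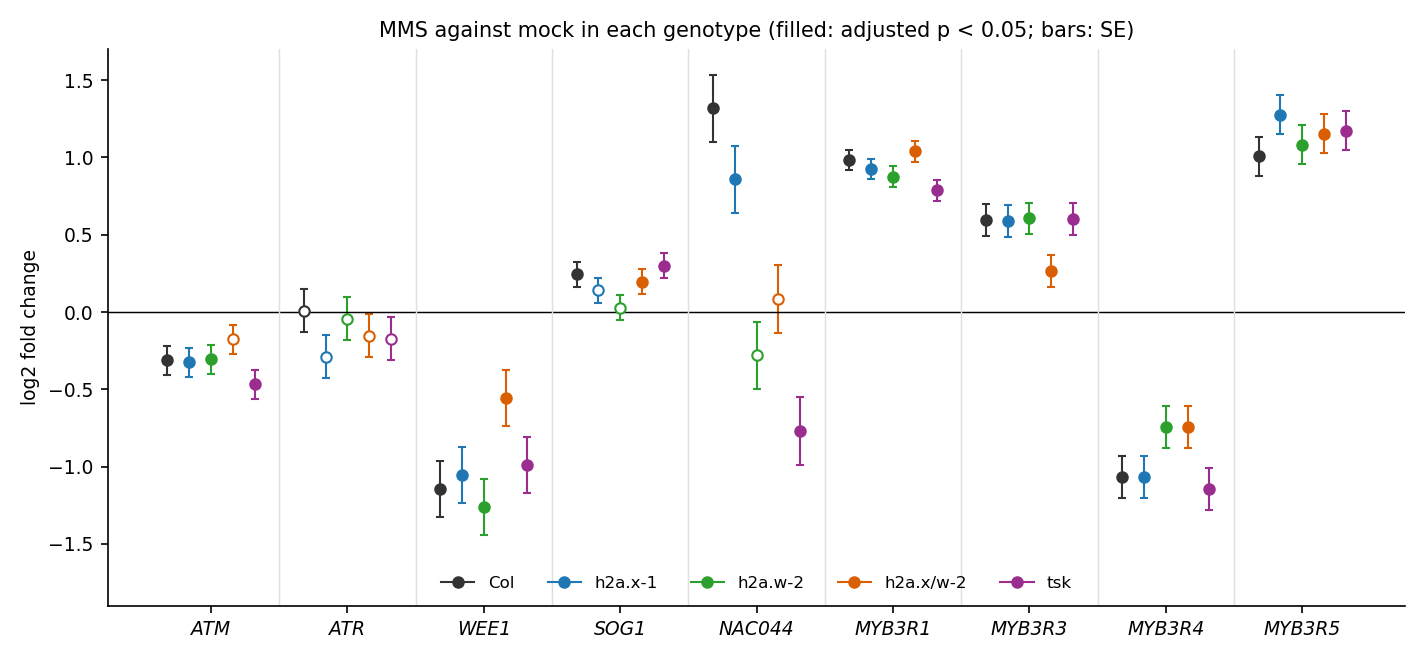
Log2 fold change with MMS against mock (vertical axis) of the 9 genes in the 5 genotypes, with SE bars; filled points had an adjusted p under 0.05 in limma. MYB3R1, MYB3R3 and MYB3R5 lie above 0 and WEE1 and MYB3R4 below 0 in every genotype, while NAC044 runs from 1.32 in Col to -0.77 in tsk.

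MMS also changed the lists that mark cell types and dividing cells. In Col, 4 of 4 leaf markers, 4 of 5 root markers and 2 of 3 shoot meristem markers fell, where 35.6% of all genes tested were called lower. The summed level of the leaf markers was 348560 to 366640 normalized counts per kb in Col mock and 189040 to 192470 in Col MMS, that of the root markers 758 to 778 under MMS, and that of the meristem markers 546 to 553 without and 317 to 330.4 with MMS. CLV3, a marker of the meristem, was not analysed here. No listed marker in the table was at 0 in any library, which holds for every gene of the table. The G2/M list summed to 2148 to 2242 per kb in Col mock and to 1056 to 1170 in Col MMS, and the S phase list to 1460 to 1589 and 652 to 706. In the other genotypes the leaf markers again fell 4 of 4, where 35.5% to 36.9% of all genes tested were called lower. The part of these shifts in the changes of the 9 genes was not tested.

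The comparison of each mutant with Col in the mock groups asks whether the checkpoint genes differ without MMS. Of the 9 genes none was called in h2a.x-1 mock (7.48% of all genes called), 1 in h2a.w-2 (13.1%), 3 in the libraries labelled h2a.x/w-2 (25.3%) and 3 in tsk (26.0%). Beside NAC044 and ATM, MYB3R4 was called higher in h2a.x/w-2, at 261, 272 and 292 normalized counts (log2 0.42 ± 0.14, limma, adjusted p = 0.022; 0.46, adjusted p = 0.032, without replicate 1), and in tsk, at 304, 240.2 and 277 (0.41 ± 0.14, adjusted p = 0.025); all these libraries lay above those of Col. Both calls were lost without Col mock replicate 1 (adjusted p = 0.069 and 0.077), and without some other single libraries. In h2a.w-2 mock MYB3R4 stood at 304, 227 and 283, also above Col, with a change of 0.40 ± 0.14. The main limma fit did not call it (adjusted p = 0.052). With TMM scaling edgeR's quasi-likelihood test did (adjusted p = 0.033), and so did DESeq2 (adjusted p = 0.025). Limma also called it with a pseudocount of 5 (adjusted p = 0.049), FPKM (adjusted p = 0.048), only the groups compared (adjusted p = 0.039) or a replicate block (adjusted p = 0.047).

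Under MMS none of the 9 was called in h2a.x-1 against Col (11.0% of all genes), 1 in h2a.w-2 (11.7%), 4 in h2a.x/w-2 (25.3%) and 3 in tsk (30.3%). MYB3R4 with MMS stood at 201, 146 and 142 in h2a.w-2 and at 162, 169 and 160.2 in the libraries labelled h2a.x/w-2, all above the highest Col MMS library at 112. It was higher than in Col by 0.72 ± 0.14 (limma, adjusted p = 6e-04) and 0.75 ± 0.14 (adjusted p = 0.00014) on the log2 scale. In the same comparisons 12 of 20 G2/M genes were called higher in h2a.w-2 (list median 0.50, all genes 0.01) and 9 of 20 in h2a.x/w-2 (median 0.40, all genes -0.01). The shares of all genes tested called higher there were 7.75% and 12.8%. In tsk MYB3R4 under MMS overlapped Col, and the main limma fit did not call it (0.33 ± 0.14, adjusted p = 0.063). Limma called it with FPKM (0.39, adjusted p = 0.034) and without some single libraries, such as Col MMS replicate 1 (0.44, adjusted p = 0.031).

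**Figure D3:**
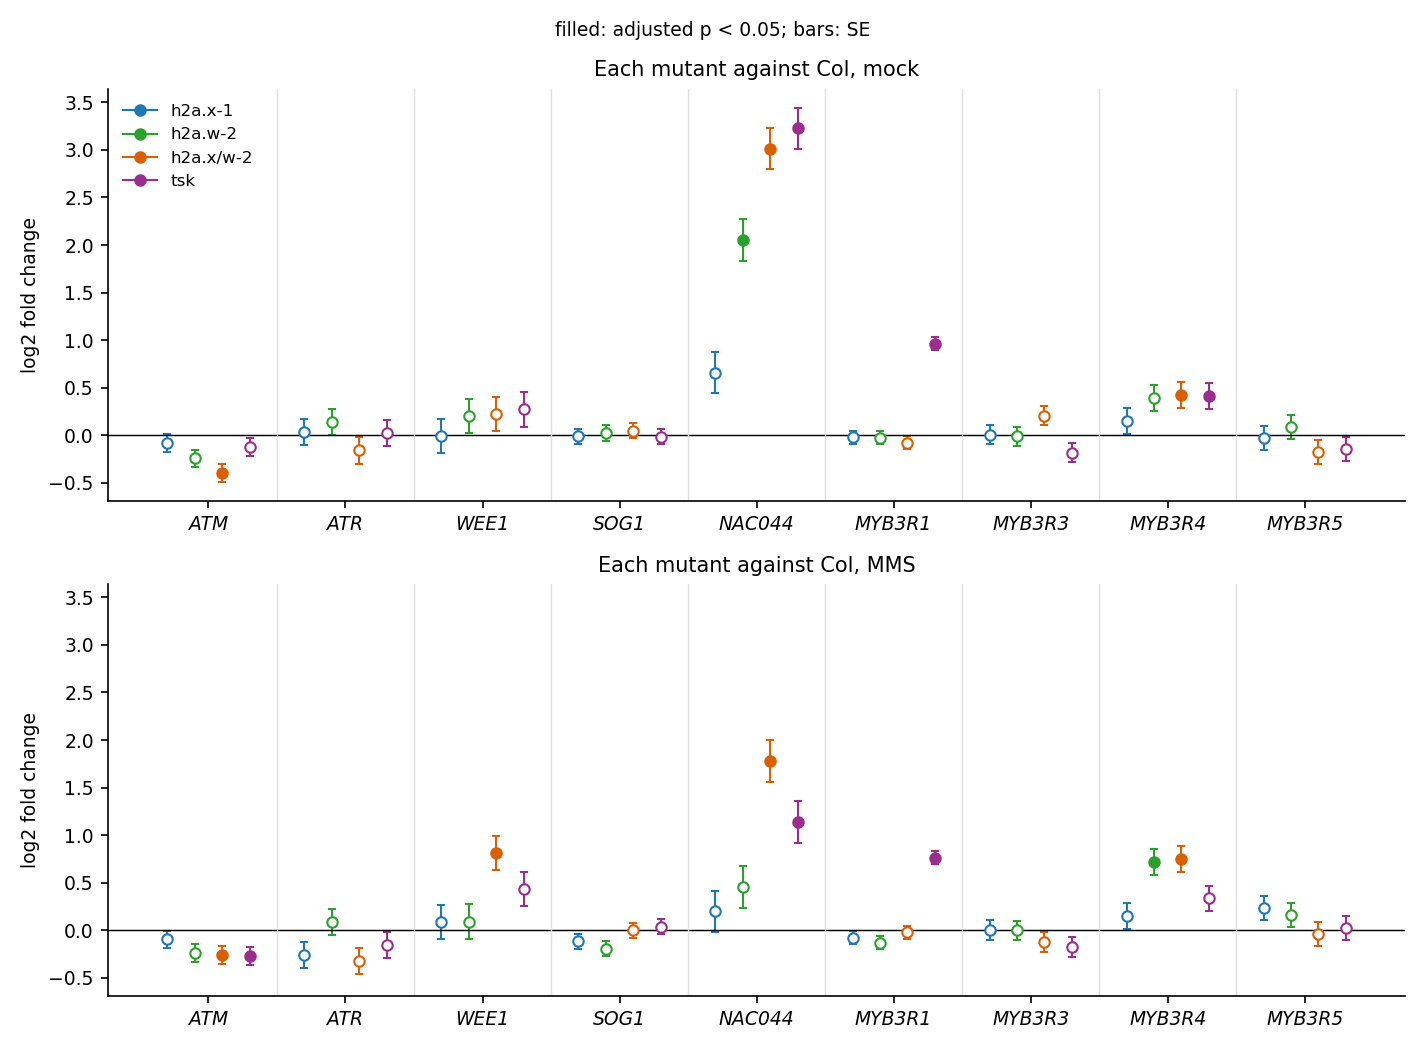
Log2 fold change of each mutant against Col (vertical axis) for the 9 genes, without MMS (top) and with MMS (bottom), with SE bars; filled points had an adjusted p under 0.05. NAC044 reaches 3.01 in h2a.x/w-2 and 3.23 in tsk without MMS and 1.78 and 1.14 with it, and MYB3R1 stands at 0.96 and 0.77 in tsk and between -0.13 and -0.02 in the other mutants.

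MYB3R1 was higher in tsk than in Col with and without MMS. In tsk mock it stood at 1319.8, 1329 and 1284 normalized counts, all above Col mock and within the range of Col under MMS, and in tsk MMS at 2112, 2317 and 2366. The log2 differences were 0.96 ± 0.07 (limma, adjusted p = 4.9e-12) without and 0.77 ± 0.07 (adjusted p = 5.9e-10) with MMS. The genes around MYB3R1 on chromosome 4 were higher in tsk as well: of the 20 nearest genes tested, which lie between 15731443 and 15848552 of TAIR10.1, 16 were called higher and 1 lower without MMS, with a median of 0.83, and 18 higher and 1 lower with MMS, with a median of 0.85. The shares of all genes tested called higher in tsk were 10.9% without and 12.8% with MMS. In the other mutants the median of the neighbours of MYB3R1 was between -0.09 and 0.01, and around the other 8 genes the median of the 20 nearest genes lay between -0.15 and 0.20 in all mutants. The difference of MYB3R1 in tsk is thus one that its neighbours share, and whether it belongs to the gene or to the chromosome segment was not tested. Of its exon bases 1.26% overlap AT4G32750 on the other strand.

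**Figure D4:**
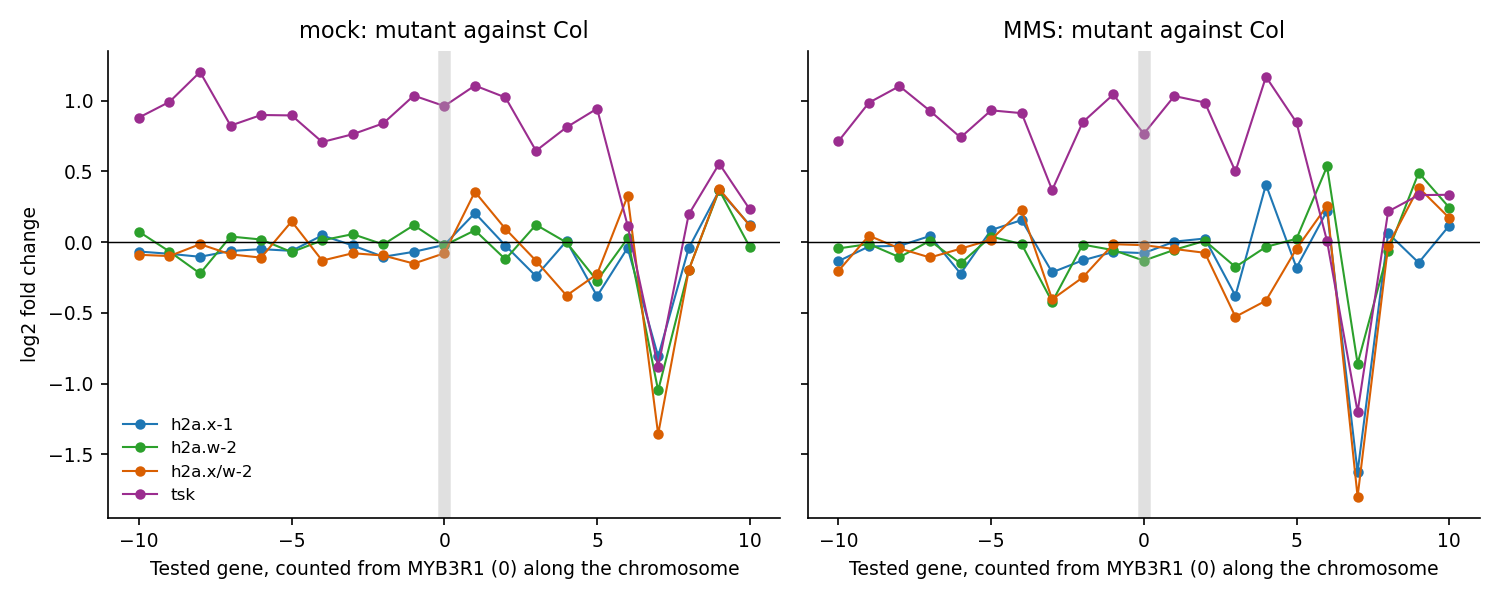
Log2 fold change of each mutant against Col (vertical axis) for MYB3R1 (place 0, grey band) and the 10 tested genes on each side of it, in order along the chromosome, without MMS (left) and with MMS (right). In tsk the genes from place -10 to 5 lie above 0, whereas the lines of the other mutants run on both sides of 0 there, and all 4 mutants dip at place 7.

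The h2a.x/w-2 and tsk plants were compared directly, with the limit that the label of the former is not checked by its RNA. Without MMS 3 of the 9 genes were called (29.7% of all genes) and with MMS 3 (28.1%). NAC044 did not differ past the threshold without MMS (log2 -0.21 ± 0.22, adjusted p = 0.49), and under MMS it was higher in h2a.x/w-2, without overlap (0.64 ± 0.22, limma, adjusted p = 0.027), a call lost on leaving out any of 4 of the 6 libraries compared, with changes of 0.53 to 0.64 and adjusted p values of 0.062 to 0.12. These 4 were h2a.x/w-2 MMS replicates 2 and 3 and tsk MMS replicates 1 and 2. MYB3R1 was lower in h2a.x/w-2 than in tsk without MMS (-1.04) and with it (-0.79), beside the raised neighbours in tsk given above. MYB3R3 was higher in h2a.x/w-2 mock than in tsk mock (0.39 ± 0.10, adjusted p = 0.0049; 0.30 without replicate 1), and MYB3R4 was higher under MMS (0.41 ± 0.14, adjusted p = 0.022). The MYB3R4 call was lost with FPKM (0.33, adjusted p = 0.074), without h2a.x/w-2 MMS replicate 2 (adjusted p = 0.068) and without tsk MMS replicate 1 (adjusted p = 0.10). ATM was lower without MMS (-0.28, adjusted p = 0.026), though not without h2a.x/w-2 mock replicate 1 (-0.14, adjusted p = 0.27).

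The excess of h2a.x/w-2 over the sum of the log2 changes of h2a.x-1 and h2a.w-2 was then tested. The labels do not say whether h2a.x/w-2 carries the alleles of h2a.x-1 and h2a.w-2, and its RNA does not check this. Mean HTA5 counts without MMS were 1040 in Col, 191 in h2a.x-1 and 916 in h2a.x/w-2. Those of HTA6 were 1144 in Col, 798 in h2a.w-2 and 1006 in h2a.x/w-2. Whether an excess belongs to the combination or to a difference of alleles or lines was not tested. Without MMS none of the 9 genes departed from the sum past the threshold (10.5% of all genes called); for NAC044 the excess was 0.30 ± 0.31 (adjusted p = 0.59; 0.40 without h2a.x/w-2 mock replicate 1). With MMS 1 gene did (8.20% of all genes), NAC044, with an excess of 1.13 ± 0.31 (limma, adjusted p = 0.021). That call was lost without Col MMS replicate 2 (0.99, adjusted p = 0.057), without h2a.x-1 MMS replicate 2 (1.03, adjusted p = 0.059) or without h2a.x/w-2 MMS replicate 3 (1.02, adjusted p = 0.063).

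The lists of the same pathway place the 9 genes among their partners and targets. Of 8 genes upstream of the checkpoint, RAD50 and NBS1 of the complex that senses breaks rose with MMS in Col (0.24 and 0.37) and RAD1 and RAD9 of the clamp that activates ATR fell (-1.81 and -0.73), with a list median of -0.01 against 0.01 for all genes. Without MMS, RAD17, the loader of that clamp, was higher than in Col in all 4 mutants (log2 0.43 in h2a.x-1, 0.88 in h2a.w-2, 1.20 in the libraries labelled h2a.x/w-2 and 1.66 in tsk). The other calls of this list without MMS were NBS1 in tsk (0.39) and RAD50 in h2a.x/w-2 (-0.31), and the list median in tsk was 0.34. Of 17 damage response genes, 9 rose and 4 fell with MMS in Col (median 0.41), where 35.5% of all genes tested were called higher and 35.6% lower. Among the list genes that rose were AGO2 (1.14), XRI1 (0.95) and GMI1 (1.01), and RNR1, the large subunit of ribonucleotide reductase, fell (-0.63).

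Without MMS, the damage response list was higher than in Col for 2 of 17 genes in h2a.x-1 (median 0.18), 12 in h2a.w-2 (0.47), 15 in the libraries labelled h2a.x/w-2 (1.36; 14 and 1.41 without replicate 1) and 15 in tsk (1.45), and lower for none, whereas the median of all genes lay between -0.04 and 0.00. The shares of all genes tested called higher were 4.29%, 6.05%, 11.8% and 10.9% in these 4 mutants in that order. In tsk mock TSO2, a small subunit of ribonucleotide reductase, rose by 1.498, XRI1 by 2.01, GMI1 by 2.09 and PARP2, a poly(ADP-ribose) polymerase, by 1.5. NAC044 lay above the list median in all 4 mutants. With MMS, 2 of the 17 rose and 4 fell in tsk (median -0.11), where 35.5% of all genes tested were called higher and 35.6% lower. The response differed from that of Col for 7 of 17 in tsk, against 2.49% of all genes tested. Each differed toward a smaller rise or a fall, among them XRI1 (-1.22), BRCA1 (-1.25), SMR7 (-2.52) and SMR4 (-2.30). The list was put together from genes known to respond to DNA damage in plants, at a time when results of these libraries were known, so its direction is not independent evidence.

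The G2/M genes, the targets of the MYB3R factors, fell with MMS for 19 of 20 in Col (median -0.98), h2a.x-1 (-1.20), h2a.w-2 (-0.83) and h2a.x/w-2 (-0.91) and for 20 of 20 in tsk (-1.16). The share of all genes tested that was called lower with MMS was 35.5% to 36.9% over the 5 genotypes. In Col the cyclin gene CYCA1-1 fell by 1.58, the kinesin gene HIK by 1.20, CYCB1-2 by 1.11 and CDKB2-1 by 0.84. MYB3R4 fell within the range of this list in all 5 genotypes. The S phase list fell as well, 7 of 7 in every genotype, with medians from -1.40 to -0.63.

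**Figure D5:**
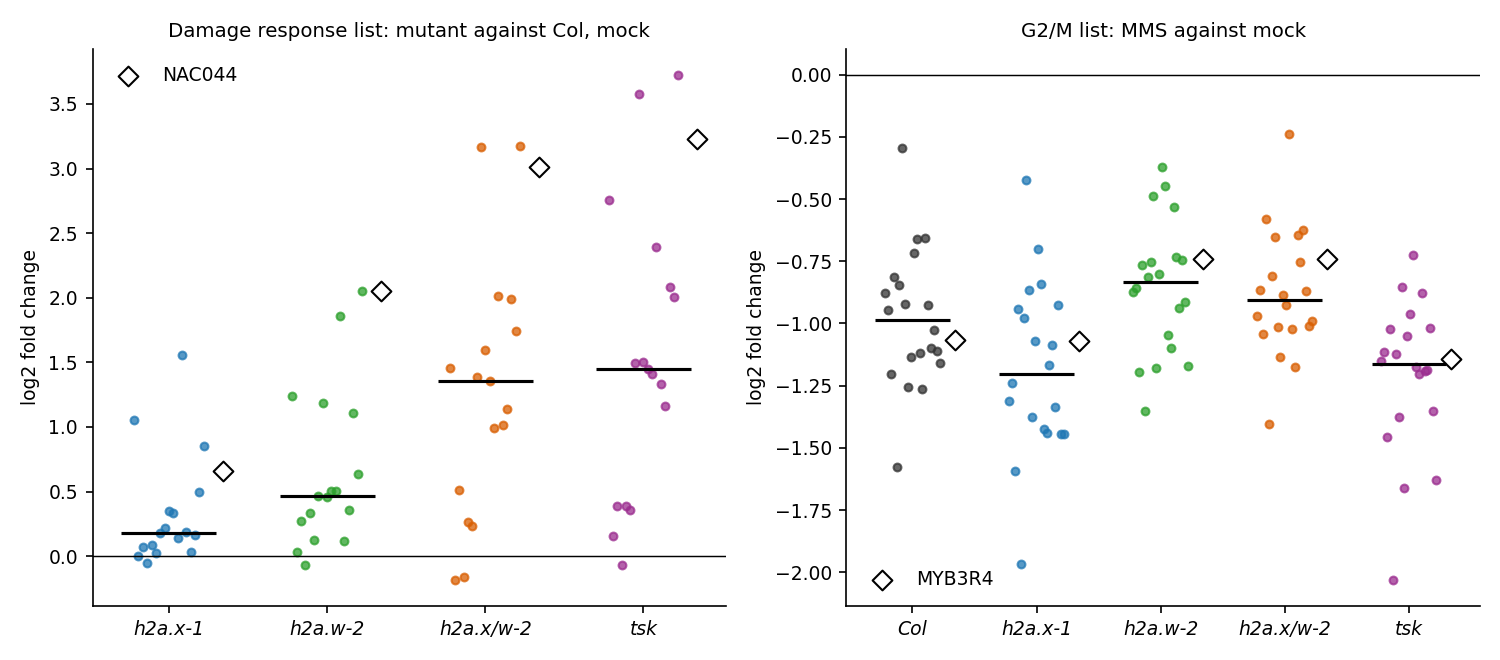
Log2 fold changes (vertical axes) of the genes of 2 lists, with the list median as a bar and a member gene as a diamond. On the left, 17 damage response genes and NAC044 in each mutant against Col without MMS, with medians of 0.18, 0.47, 1.36 and 1.45; on the right, 20 G2/M genes and MYB3R4 with MMS in each genotype, where every gene lies below 0.

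Over the 10 group means of log2(normalized count + 1), each gene was set against all others tested, as a description of likeness in shape. The pattern of NAC044 was most like that of NAC103, another NAC gene that SOG1 is known to activate (Pearson's r = 0.983 over 10 group means), AT4G22960 (0.957) and XRI1 (0.934). WEE1 was most like FAS2, a subunit of the chromatin assembly factor CAF-1 (0.995), MAP65-5 (0.994) and BRG1 (0.989), and MYB3R4 was like AT2G46000 (0.992) and the B-type cyclin gene CYCB2;4 (0.991). For MYB3R1 the closest was SKIP5 (0.995), for MYB3R3 ML5 (0.994), for MYB3R5 AT3G57750 (0.995), for ATM AT2G48060 (0.969), for ATR CHR38 (0.931) and for SOG1 AT5G48175 (0.936). Within the set, WEE1 and MYB3R4 had an r of 0.934, MYB3R3 and MYB3R5 of 0.926, and WEE1 and MYB3R5 of -0.932. All of these rest on the same 30 libraries and on the split between mock and MMS.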

How the data were processed

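RNA from 30 seedling libraries was sequenced on an Illumina instrument with paired reads of 150 nt, per the labels' protocols. Reads were aligned with STAR to TAIR10 and handled with DESeq2 1.30.1, per the submitters' processing notes. The authors deposited a signal per gene, the read count divided by a library size factor (called normalized count here), and an FPKM table. All values of the signal table came out as whole reads within 0.01 of a read once divided by the library's step. The step is the lowest value of the library and was taken as 1 read. No gene in the signal table had 0 reads in any library, and 30 per-library files repeat its columns. A count test was planned for whole counts; since the deposited values are normalized, the main test was the planned fallback. Gene lengths implied by the deposited FPKM values bear no relation to annotated exon lengths (Spearman's rho -0.0019 across 20404 genes), so FPKM was compared only within a gene, and levels between genes use the TAIR10.1 exon length from RefSeq, in which all 20404 loci were found.

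Testing took in genes whose normalized count reached 10 in 3 or more libraries and used limma 3.58.1 (empirical Bayes with trend, R 4.3.3) on log2(normalized count + 1), with 1 coefficient for each of 10 groups leaving 20 residual degrees of freedom; the Benjamini-Hochberg adjustment ran over 20256 genes, and a change was called at an adjusted p under 0.05. Alternatives were edgeR 4.0.16 and DESeq2 1.42.0 on recovered reads, other size factors, FPKM with a pseudocount of 0.1, a pseudocount of 5, no filter, fits on the groups compared only, a replicate block and leaving out each library. The code was tested on simulated data. The 10 genes, the gene lists and the rule for naming list genes (up to 4 of the smallest adjusted p in a comparison) were chosen with earlier results of these data known; where fewer or others are named, they were chosen after their values were seen. Depth was 15343687 to 25115027 reads per library, and 9 to 3145 reads lay behind a value of the 9 genes. Protein sequences were not used here.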

Additional observations from a re-analysis of the deposited data

Results flagged for a closer look

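NAC044 stood out because its response to MMS differed from that of Col by a test of the difference itself in 3 genotypes. The differences of log2 changes were -1.599 in h2a.w-2, -1.233 in the libraries labelled h2a.x/w-2 and -2.087 in tsk, each with an SE of 0.308. Over all 38 alternatives, limma or another tool, the adjusted p values of these differences lay between 0.00023 and 0.019, 0.001 and 0.041, and 9.3e-06 and 0.0027 for the 3 genotypes in that order. In all 3 genotypes every mock library lay above the highest Col MMS library for NAC044, though the lowest h2a.w-2 one did so by little. This difference across treatments was not tested. The lowest normalized count of NAC044 among the 30 libraries was 9.71, in Col mock. No test for a single outlying value of a gene was run within groups, since each holds 3 libraries.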

How the results depend on the processing

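Of 189 comparisons of a member gene, 60 were called, and 48 of these kept their call and direction under all 38 alternatives, 30 of which leave out a library. No called value reversed; 46 comparisons changed sign under at least 1 alternative, none of them called with all libraries or under that alternative. The other 12 lost the call under at least 1 alternative, 7 of them under a setting other than leaving out a library, and 15 comparisons that were not called passed under at least 1. For MMS against mock 35 of 45 comparisons were called with all libraries (72.0% over all genes tested), and 32 to 36 with 1 library left out. For mutants against Col these were 7 of 36 (18.0%) and 6 to 9 without MMS, and 8 of 36 (19.6%) and 6 to 10 with it. For differences between MMS responses they were 3 of 36 (5.10%) and 3 to 4. For h2a.x/w-2 against tsk they were 6 of 18 (28.9%) and 4 to 6. For the excess of h2a.x/w-2 over the sum of h2a.x-1 and h2a.w-2 they were 1 of 18 (9.37%) and 0 to 2. The counts with all libraries are near the shares of all genes and say little about the set. The causes of these losses were not tested. The deposited FPKM values moved the median log2 change with MMS of all genes to 0.12 in Col, 0.11 in h2a.x/w-2 and 0.10 in tsk. The directions of the 9 genes with MMS held in these 3 genotypes. In h2a.w-2 the change of ATR with MMS, not called, lay between -0.05 and 0.009 over the settings other than leaving out a library.

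Replicate numbers did not pair libraries: over 135 same-numbered pairs from different groups, the correlation of deviations from the group mean had a median of 0.001, as for different numbers, 1 pair exceeded 0.1, and 7 of 30 libraries correlated best with their own number. With a replicate block, the counts of called comparisons were 35, 8, 7, 3, 6 and 1; ATM in h2a.x/w-2 against Col under MMS lost its call (-0.26, adjusted p = 0.053) and MYB3R4 in h2a.w-2 against Col without MMS gained one (0.40, adjusted p = 0.047). The fewest reads in a library were 9 for NAC044, 32 for WEE1, 75 for MYB3R5 and 87 for both ATR and MYB3R4. Small changes of these genes may not be detectable at this depth.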
